A study of Homo sapiens and Mus musculus with 12 samples.

Results

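Store-operated calcium entry is carried by the ORAI channel proteins and the STIM calcium sensors. Their genes were taken by symbol from the count tables as Orai1, Orai2, Orai3, Stim1 and Stim2 in mouse and as ORAI1, ORAI2, ORAI3, STIM1 and STIM2 in human, 5 of 22021 genes listed in mouse and 5 of 18304 in human, or 10 of 40325 in all. The genes were put forward with their differences between KO and WT and between BIX-01294 and DMSO already known, so these differences are given as a description, without a test.

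RNA-seq was performed to ask how loss or inhibition of EHMT2 (G9a), a histone H3K9 methyltransferase, alters gene expression in NK cells. In mouse, sorted splenic NK cells gave 3 libraries from WT mice with a floxed Ehmt2 gene and no Cre (Ehmt2 fl/fl). Another 3 came from KO mice (Ehmt2 fl/fl, Ncr1 iCre), and the mice were on the C57BL/6J background at 8 to 12 weeks of age. The study gated splenic NK cells as CD3-NK1.1+ in other assays, and its account of the RNA-seq does not name the gate. Both genotypes thus carried the floxed alleles, and Cre was driven by Ncr1, the gene of the receptor NKp46, so that deletion depended on cells that had expressed NKp46. The genotype label of the KO samples reads Ezh2-KO, while their titles name EHMT2, and they were grouped by the titles. In human, NK92MI, an established NK line in which an introduced gene supplies IL-2, was treated with BIX-01294, an inhibitor of EHMT2 and EHMT1, or with the solvent DMSO, 3 libraries each, all from 1 line. Functional assays on NK92MI used 0.25 µM for 5 days, and the labels of these libraries give neither dose nor time. No source used here states that the replicates were separate mice or separate cultures, so p-values measure only the spread between these libraries, which may be technical.

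When a receptor on an NK cell activates phospholipase C gamma, the messenger IP3 opens IP3 receptors and calcium leaves the endoplasmic reticulum. STIM1 and STIM2 sense the falling calcium inside the reticulum, move to contacts with the plasma membrane and open channels built from ORAI subunits. The calcium that enters activates calcineurin, which sends NFAT transcription factors to the nucleus, and it is required for release of lytic granules by cytotoxic lymphocytes.

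Library totals lay between 25891680 and 37438868 counts in mouse, lowest in WT replicate 2, and between 16579469 and 17165446 in human. All 10 genes passed the filter on low counts, among 13189 mouse and 12727 human genes tested. Levels are CPM (counts scaled to a common library total) after TMM normalization. Ehmt2 was counted at 275, 284 and 285 CPM in WT NK cells and at 171, 143 and 137 CPM in KO NK cells, a log2 fold change of −0.91 ± 0.10 (SE, adjusted p = 0.0162). EHMT2 was counted at 57.0, 61.5 and 54.3 CPM with DMSO and at 40.4, 39.2 and 35.8 CPM with BIX-01294 (−0.58 ± 0.08, adjusted p = 0.000101). Ehmt1, its close relative, had a log2 fold change of 0.09 ± 0.10 (adjusted p = 0.572) in KO NK cells, and EHMT1 of −0.17 ± 0.07 (adjusted p = 0.0664) with BIX-01294.

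The mouse libraries also differed in their markers of other cells. The summed level of 12 NK cell markers was 6040, 9920 and 6180 CPM in the WT replicates and 11200, 13300 and 12900 CPM in the KO replicates. Of these markers 12 had a positive log2 fold change, and 7 were called higher. The summed level of 12 macrophage markers was 2670 to 7080 CPM in WT and 1410 to 2590 CPM in KO, with 12 of 12 markers at a negative log2 fold change and 7 called lower. The summed level of 10 B cell markers was 457 to 1380 CPM in WT and 37.3 to 424 CPM in KO, with 10 of 10 negative but 0 called. Neutrophil markers summed to 191 to 1510 CPM in WT and 42.2 to 207 CPM in KO, dendritic cell markers to 3150 to 3460 and 2010 to 2820 CPM, and erythroid or platelet markers to 1730 to 2690 and 1320 to 1460 CPM. Of 9, 9 and 10 tested markers of these lists, 2, 2 and 5 were called lower and 0 higher. T cell markers summed to 181 to 274 CPM in WT and 141 to 245 CPM in KO. Of 8 tested T cell markers 5 had a negative log2 fold change, and 2 were called higher and 0 lower. The defining NK markers Ncr1 (333 to 582 CPM) and Klrb1c (304 to 742 CPM) were present in all 6 libraries, beside Lyz2 of myeloid cells at 572 to 1550 CPM and Cd3e of T cells at 3.96 to 13.7 CPM. No mouse marker in the table was at 0 in all libraries. In bulk samples fewer cells of a type and less RNA per cell cannot be told apart. NK92MI libraries had NCAM1 at 322 to 373 CPM and PRF1 at 529 to 910 CPM, with CD4 at 0 to 0.243 CPM. CD3E, a T cell marker in the list, was at 485 to 591 CPM in the line. NK cell markers summed to 4970 to 5320 CPM with DMSO and 6270 to 7660 CPM with BIX-01294. Of these 12 markers 5 were called higher and 4 lower. T cell markers summed to 594 to 613 CPM with DMSO and 627 to 719 CPM with BIX-01294. Dendritic cell markers summed to 108 to 114 and 92.4 to 101 CPM, and of 3 tested 1 was called higher and 1 lower. B cell, macrophage, neutrophil and erythroid or platelet markers each summed to at most 32.3 CPM.

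The clearest difference among the 10 genes was in the human line, where ORAI2 was counted with BIX-01294 at 0.501 times its DMSO level, while ORAI3 was barely counted in any library. Sequences before a RefSeq start of these human genes are shown because they belong to the member that differed and to the member that was barely counted. RefSeq windows of 250 bases before the annotated start (GRCh38.p14) were matched for 4 of the 5 human genes, which leaves ORAI1, and for none in mouse. Bases in capitals are matches to the GC box GGGCGG or the E-box CACGTG, each searched on both strands. The ORAI2 stretch is the part of its window outside annotated exons, at chr7:102433356-102433529 on the plus strand, which lies before that RefSeq start but within the longer gene span that GENCODE gives, since other ORAI2 transcripts start further upstream. The ORAI3 stretch is its whole window, at chr16:30948818-30949067 on the plus strand.
ORAI2: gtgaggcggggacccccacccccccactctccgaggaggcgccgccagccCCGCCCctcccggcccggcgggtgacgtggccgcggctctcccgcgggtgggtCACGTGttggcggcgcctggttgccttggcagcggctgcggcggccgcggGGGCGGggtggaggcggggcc
ORAI3: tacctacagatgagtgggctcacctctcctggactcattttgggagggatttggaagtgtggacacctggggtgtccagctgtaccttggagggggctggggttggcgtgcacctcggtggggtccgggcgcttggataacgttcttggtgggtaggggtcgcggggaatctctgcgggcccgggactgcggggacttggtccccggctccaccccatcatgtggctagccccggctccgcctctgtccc
The ORAI2 window held 1 E-box and 2 GC boxes, which did not overlap, and the ORAI3 window held neither. An E-box was present in 6.34% of 35116 RefSeq windows of this length and a GC box in 42.6%. GC content was 81.2% for ORAI2 and 64.8% for ORAI3, against a median of 58.0% over all windows, and the windows held 35 and 13 CpG dinucleotides against a median of 11. The STIM2 window held 2 GC boxes, a GC content of 75.2% and 38 CpG. The 4 STIM1 windows held 0, 2, 8 and 8 GC boxes, 56.0, 68.0, 77.2 and 79.6% GC, and 5, 22, 34 and 35 CpG. The 2 STIM1 windows with 8 GC boxes overlap, at chr11:3855414-3855663 and chr11:3855453-3855702, so they are not separate counts. A link between these letters and the levels was not tested. The NFAT core GGAAA, searched on both strands, was in neither the ORAI2 nor the ORAI3 window and in 55.6% of all windows. These matches describe letters in the windows and are not measured binding sites.

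In BIX-01294-treated NK92MI, ORAI2 was the member with a changed level. ORAI2, a pore subunit that can join ORAI1 in mixed channels, lies on chromosome 7 of GRCh38 from 102433106 to 102456825 (plus strand). DMSO libraries had 197, 197 and 185 CPM of it, and BIX-01294 libraries had 99.7, 93.1 and 97.4 CPM. Every treated library lay far below every control library. The log2 fold change was −0.996 ± 0.063 (SE), from 193 ± 6.49 to 96.7 ± 3.33 CPM (SD, n = 3), and it stayed between −1.02 and −0.96 with each library left out and under every other setting tried. Of its exon bases, 5.29% overlap exons of ALKBH4 on the other strand, and the strand setting of the counting is not given in the sources used here.

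ORAI1, the pore subunit that carries most of this current in lymphocytes (chromosome 12, 121626509 to 121643218, plus strand), was counted at 23.1, 23.8 and 24.6 CPM with DMSO and at 29.1, 24.3 and 32.6 CPM with BIX-01294. BIX-01294 replicates 1 and 3 were above all controls, and replicate 2 lay within their range. The log2 fold change was 0.27 ± 0.11, short of the threshold over all genes. Without BIX-01294 replicate 2 it passed the threshold, as did 5021 of all 13032 genes tested in that fit. ORAI3, the remaining pore subunit (chromosome 16, 30949068 to 30956461, plus strand), had 13, 18 and 11 counts with DMSO and 10, 9 and 22 counts with BIX-01294, or 0.528 to 1.30 CPM. The groups overlapped fully, and at this depth a difference was not detectable (log2 fold change −0.01 ± 0.43). Without BIX-01294 replicate 3, its highest library, the value was −0.51. ENSG00000261487 on the same strand shares 52.9% of the ORAI3 exon bases, so reads there may have been left uncounted. Over the 1244 exon bases it does not share in the GENCODE annotation used here, the same counts amount to 0.425 to 1.04 CPM per kilobase. The part of the shared bases in its low count was not tested.

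STIM1 and STIM2 in the human line differed little. STIM1, the main sensor of store depletion (chromosome 11, 3854527 to 4093210, plus strand), was counted at 153, 160 and 164 CPM with DMSO and at 158, 159 and 170 CPM with BIX-01294, a log2 fold change of 0.03 ± 0.06. STIM2, which responds to smaller falls in store calcium (chromosome 4, 26857601 to 27025381, plus strand), was counted at 136, 130 and 129 CPM with DMSO and at 136, 144 and 127 CPM with BIX-01294, a log2 fold change of 0.04 ± 0.07. For both sensors the groups overlapped. In all, 1 of 5 genes, ORAI2, was called at an adjusted p under 0.05 by edgeR, where 36.9% of all genes tested were called (18.4% higher and 18.4% lower), and it was the member whose groups did not overlap, as in 47.9% of all genes. At an unadjusted p under 0.05 ORAI1 and ORAI2 passed, as did 46.1% of all genes. Since the genes were put forward on this contrast, nothing is read from these counts.

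In KO NK cells no member was called, and 4 of the 5 had a positive log2 fold change. Orai1 (chromosome 5 of GRCm38, 123015074 to 123030456, plus strand) was counted at 76.2, 80.1 and 88.7 CPM in WT and at 77.4, 81.8 and 64.6 CPM in KO, and KO replicate 3 was the lowest of the 6 libraries. Orai2 (chromosome 5, 136147459 to 136170713, minus strand) was counted at 119, 156 and 136 CPM in WT and at 156, 171 and 165 CPM in KO. Orai3 (chromosome 7, 127769815 to 127775150, plus strand) was counted at 63.6, 65.5 and 55.9 CPM in WT and at 67.3, 64.0 and 70.1 CPM in KO. In each of the 3 channel genes the groups overlapped, for Orai2 through WT replicate 2 and KO replicate 1 alone. The log2 fold changes were −0.13 ± 0.11 for Orai1, 0.26 ± 0.11 for Orai2 and 0.12 ± 0.09 for Orai3.

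The mouse sensors moved like Orai2 across libraries. Stim1 (chromosome 7, 102267806 to 102437319, plus strand) was counted at 114, 148 and 133 CPM in WT and at 141, 162 and 171 CPM in KO, a log2 fold change of 0.26 ± 0.12. Stim2 (chromosome 5, 53998499 to 54121057, plus strand) was counted at 68.9, 94.6 and 75.3 CPM in WT and at 79.8, 105 and 96.2 CPM in KO, a log2 fold change of 0.24 ± 0.15. In both, WT replicate 2 was the highest WT library and KO replicate 1 the lowest KO library, and the groups overlapped there. Over the 6 libraries Pearson's r of log2 CPM was 0.95 between Orai2 and Stim1, 0.92 between Orai2 and Stim2 and 0.92 between Stim1 and Stim2, and −0.84 between Orai1 and Orai3. These libraries share their normalization and the marker levels given above, in which WT replicate 2 had the highest and KO replicate 1 the lowest NK marker sum of their groups. The part of these marker differences in the levels of Orai2, Stim1 and Stim2 was not tested.

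By edgeR, 0 of 5 mouse genes were called, where 11.9% of all genes were (4.44% higher and 7.43% lower), and DESeq2 called 0 as well. At an unadjusted p under 0.05 edgeR had 1, Orai2, where 35.8% of all genes passed, and no member had groups without overlap, as 38.5% of all genes did. Nothing is read from these counts either. Without WT replicate 2 Orai2 was called, as were 3530 of all 13411 genes tested in that fit. When libraries were scaled instead to 12 pan-NK genes, nearly the same set as the NK cell markers above, the median of all genes moved to −0.81 and all 5 members turned negative, from −0.95 for Orai1 to −0.53 for Orai2. Relative to that median they were at −0.14 for Orai1, 0.27 for Orai2, 0.12 for Orai3, 0.27 for Stim1 and 0.25 for Stim2.

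**Figure D1:**
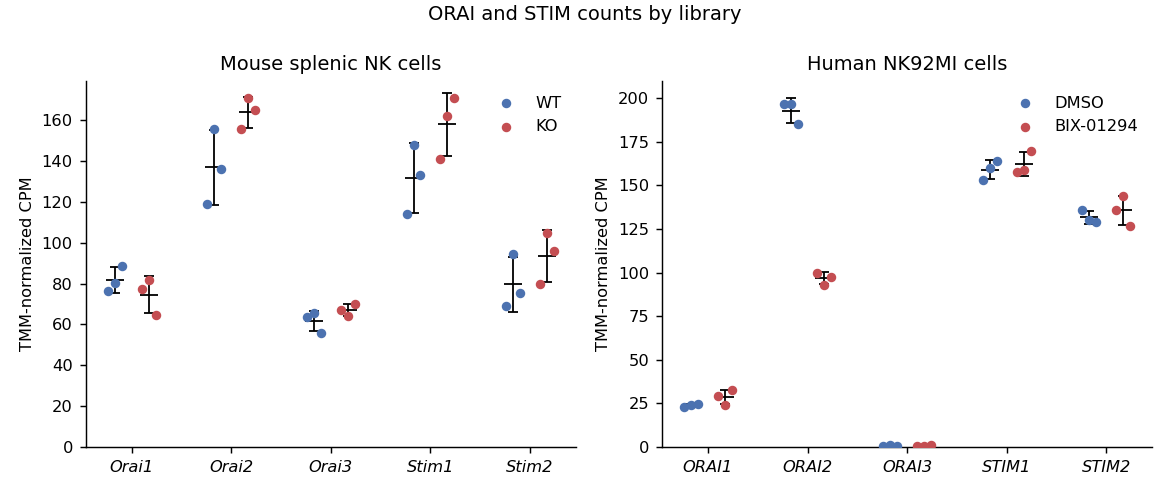
Level of each ORAI and STIM gene in TMM-normalized CPM (y axis) in mouse NK cells (left, WT and KO) and NK92MI (right, DMSO and BIX-01294). Points are libraries, and the bars give the mean and SD of 3. Only for ORAI2 are the groups apart, at 185 to 197 against 93.1 to 99.7 CPM, and ORAI3 lies near 0 in human but not in mouse.

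**Figure D2:**
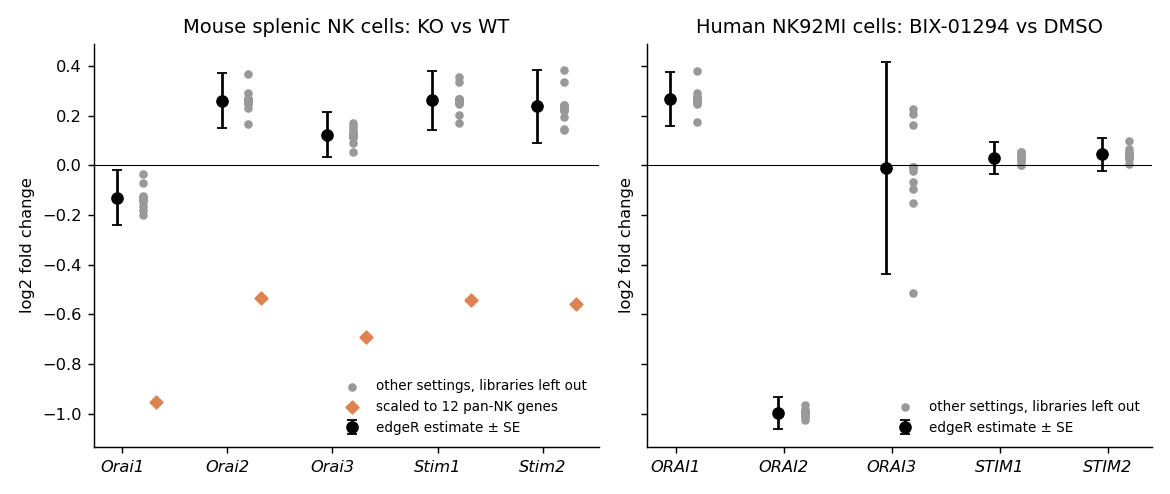
Log2 fold change (y axis) of each member, KO over WT on the left and BIX-01294 over DMSO on the right. Black points are edgeR estimates with SE, grey points the other tools, normalizations and filters and the fits with a library left out, and orange diamonds the scaling to 12 pan-NK genes, under which the median of all mouse genes is −0.81. ORAI2 stays near −0.996 in every fit, and ORAI3 spreads from −0.51 to 0.23.

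The make-up of the channel genes was compared per kilobase of the union of annotated exons. In NK92MI with DMSO, ORAI2 was the highest of the 5 genes at 16.7 to 17.7 CPM per kilobase, followed by STIM2 (15.5 to 16.4), STIM1 (12.7 to 13.7), ORAI1 (8.14 to 8.65) and ORAI3 (0.246 to 0.398), with no overlap between neighbours. With BIX-01294 ORAI2 ranked below both sensors at 8.38 to 8.97 CPM per kilobase, beside ORAI1 at 8.55 to 11.5, and these 2 ranges overlapped. STIM2 (15.3 to 17.3) and STIM1 (13.1 to 14.1) then stood first and second without overlap. As a share of the summed ORAI level, ORAI2 made up 67.8, 66.9 and 65.3% in the DMSO libraries and 46.1, 48.9 and 42.3% in the BIX-01294 libraries. The share of ORAI1 was 31.1 to 33.8% with DMSO and 49.9 to 55.3% with BIX-01294, and that of ORAI3 0.962 to 2.37% throughout. The ratio of ORAI1 to ORAI2 was 0.459, 0.472 and 0.518 with DMSO and 1.14, 1.02 and 1.31 with BIX-01294. The ratio of summed STIM to summed ORAI was 1.11, 1.09 and 1.14 with DMSO and 1.52, 1.78 and 1.42 with BIX-01294. The groups lay apart in both ratios and in the shares of ORAI1 and ORAI2, and overlapped in that of ORAI3.

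In mouse NK cells the 3 channel genes were closer to each other, and Orai3 was well counted. In WT NK cells Orai1 (33.2 to 38.6 CPM per kilobase), Orai3 (26.1 to 30.6) and Orai2 (19.5 to 25.7) followed each other without overlap, above Stim2 (13.4 to 18.4) and Stim1 (mean 12.7 ± 1.64 SD), which overlapped Stim2. In KO NK cells the order was the same, with Orai1 (28.1 to 35.7) and Orai3 (29.9 to 32.8) overlapping. Of the summed Orai level, Orai1 was 40.3, 38.3 and 44.3% in WT and 37.1, 38.1 and 31.9% in KO, and Orai2 was 23.7, 28.2 and 25.7% in WT and 28.2, 30.0 and 30.9% in KO. Orai3 held 30.0 to 36.0% in WT and 31.9 to 37.2% in KO, and its groups overlapped. Stim1 made up 43.6 to 46.7% of the summed Stim level in WT and 43.2 to 46.8% in KO, so the balance of the 2 sensors was alike in range.

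These orders depend on which length is used. Per kilobase of the longest principal transcript, STIM1 (36.7 to 39.4 CPM per kilobase with DMSO) stood above STIM2 (25.7 to 27.1), and ORAI2 (17.2 to 18.2) stood just above ORAI1 (15.5 to 16.4). With that length ORAI2 held 50.6 to 53.5% of the summed ORAI level with DMSO and 28.7 to 34.3% with BIX-01294. Stim1 likewise ranked above Stim2 in mouse (27.8 to 36.1 against a mean of 16.1 ± 2.71 SD for Stim2 in WT), and Orai2 ranked above Orai1 in KO NK cells, with overlapping ranges (39.8 to 43.8 against 34.4 to 43.6).

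**Figure D3:**
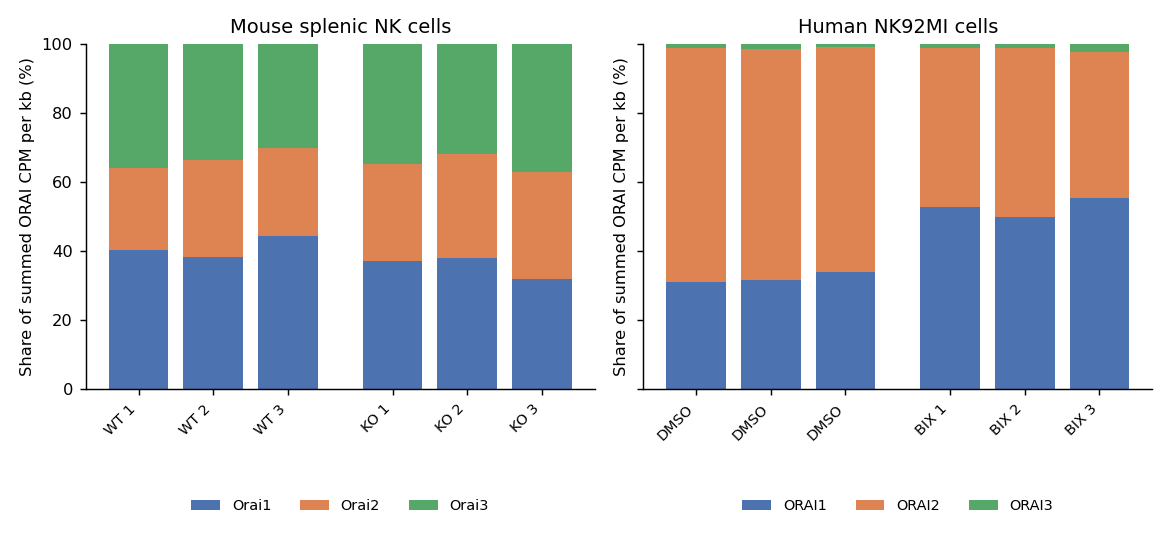
Share of Orai1, Orai2 and Orai3 (left) and of ORAI1, ORAI2 and ORAI3 (right) in their summed CPM per kilobase of exon union, in percent (y axis), for each library (x axis). ORAI2 falls from 65.3 to 67.8% in the DMSO libraries to 42.3 to 48.9% in the BIX-01294 (BIX) libraries, and ORAI3 is a thin band in human and 30.0 to 37.2% in mouse.

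Genes with the most similar pattern were found by Pearson's r of log2 CPM over the 6 libraries of a species. For ORAI2 these were MXD3 and DGKA (r = 0.999 for both), with 96 of 12726 genes over 0.99. The other human pairs were DENND10 and PDHX for ORAI1, BAHD1 and STUB1 for ORAI3, FDX1 and ZNF222 for STIM1, and BRPF3 and IQGAP1 for STIM2. In mouse they were Dyrk4 and Mapk7 for Orai1, Cmya5 and Zbtb2 for Orai2, Fam98b and Nudt22 for Orai3, Armcx4 and Pik3r5 for Stim1, and Fahd2a and Cul9 for Stim2. With 6 libraries and so many genes, a high r is easily met, and nothing is read from it.

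The genes upstream and downstream of the channel were taken from a list of 73 that does not hold the members. Like the members, the list was chosen with earlier results of these data known, so its counts are given as a description. In KO NK cells 2 of 68 tested genes of this list rose and 6 fell at an adjusted p under 0.05, or 11.8% against 11.9% of all genes, and the median log2 fold change was 0.06 against 0.01. Saraf, which slows store-operated entry by acting on STIM1, rose from 182 ± 7.91 to 230 ± 10.5 CPM (SD, n = 3, log2 fold change 0.34 ± 0.08 SE, adjusted p = 0.0413), with every KO library above every WT library. Camk2g, a calmodulin-dependent kinase, rose from 112 ± 19.3 to 168 ± 16.0 CPM (0.59 ± 0.14, adjusted p = 0.0413). Itpr1, an IP3 receptor of the store, fell from 81.9 ± 4.51 to 64.1 ± 1.61 CPM (−0.35 ± 0.08, adjusted p = 0.0403).

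Trpm2, a cation channel, was also lower in KO NK cells, from 111, 46.1 and 108 CPM in WT to 34.6, 23.3 and 27.7 CPM in KO. So were P2rx4, an ATP-gated channel (−1.12 ± 0.28), Slc8a1, a sodium-calcium exchanger (−1.21 ± 0.31), and Cracr2b, a regulator of ORAI (−1.62 ± 0.36). Cracr2b was low in both groups, at 1.16 to 2.59 CPM in WT and 0.63 to 0.68 CPM in KO. In all 4 genes WT replicate 2 was the lowest WT library, as it was for the macrophage, B cell and neutrophil marker sums, and the part of these cells in the falls was not tested. None of the 7 tested calcineurin and NFAT genes was called by edgeR. Nfatc1, Nfatc2 and Nfatc3 had log2 fold changes of 0.23 ± 0.16, 0.03 ± 0.13 and 0.38 ± 0.12, and Ppp3ca, a catalytic subunit of calcineurin, of −0.06 ± 0.08. Plcg2 (0.06 ± 0.09), Itpr2 (0.18 ± 0.14), Itpr3 (0.32 ± 0.14), the store pumps Atp2a2 (0.06 ± 0.09) and Atp2a3 (0.27 ± 0.15), the mitochondrial uniporter Mcu (0.31 ± 0.12), the potassium channels Kcna3 (0.33 ± 0.24) and Kcnn4 (−0.43 ± 0.15), Rcan1 (−0.09 ± 0.10) and Camk4 (0.25 ± 0.19) were not called. The count of 8 called genes rests on the libraries: it was 0 without WT replicate 1, WT replicate 3, KO replicate 2 or KO replicate 3. It was 13 without KO replicate 1 and 23 without WT replicate 2. The number over all genes moved too, to 99, 14, 0 and 0 in the first 4 of these fits. Without KO replicate 1 it was 2032, and without WT replicate 2 it was 3530. Scaled to the pan-NK genes, 47 of 68 tested genes of the list were called and all were lower. With this scaling 8550 of all 13189 genes tested were called, 8517 of them lower.

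In BIX-01294-treated NK92MI 16 of 63 tested genes of the list rose and 19 fell, or 55.6% against 36.9% of all genes, and the list's median was −0.04 against −0.01. In store release, PLCG2, which makes IP3 below activating receptors, fell from 89.7 ± 4.71 to 62.0 ± 5.04 CPM (−0.53 ± 0.08, adjusted p = 0.000125), ITPR3 fell (−0.27 ± 0.09, adjusted p = 0.0281) and ITPR1 rose from 220 ± 10.3 to 286 ± 31.1 CPM (0.38 ± 0.08, adjusted p = 0.00185). The groups of ITPR3 overlapped, with BIX-01294 replicate 2 at 247 CPM and a control at 243 CPM. ITPR2 was not called (0.14 ± 0.11). Among the modulators of STIM and ORAI, CRACR2A, which stabilizes the STIM1-ORAI1 complex, fell (−0.53 ± 0.09, adjusted p = 0.00061), and SARAF rose from 74.5 ± 1.57 to 93.5 ± 4.76 CPM (0.33 ± 0.07, adjusted p = 0.0018). ATP2A3, a pump that refills the store, fell from 256, 284 and 253 to 189, 186 and 202 CPM (−0.46 ± 0.07, adjusted p = 0.000148), while ATP2A2 was not called (−0.03 ± 0.06) and ATP2B4, a pump of the plasma membrane, rose (0.35 ± 0.09, adjusted p = 0.00536).

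Potassium channels keep the membrane negative and so sustain calcium entry. KCNA3 rose from 104, 97.3 and 96.0 to 128, 142 and 114 CPM (0.37 ± 0.08, adjusted p = 0.00226), and KCNN4 rose from 0.177 to 0.234 CPM with DMSO to 1.22 to 1.89 CPM with BIX-01294 (2.86 ± 0.42, adjusted p = 0.000154), low in both. TRPM2 fell from 8.26 ± 0.771 to 4.15 ± 0.551 CPM (−0.99 ± 0.16, adjusted p = 0.00035). Of the mitochondrial uptake genes SMDT1 fell (−0.73 ± 0.15), MCUR1 rose (0.36 ± 0.07), and MCU was not called (0.07 ± 0.10).

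Downstream of entry, the catalytic calcineurin genes that were called moved in opposite directions. PPP3CA rose from 174 ± 3.29 to 208 ± 11.9 CPM (0.26 ± 0.06, adjusted p = 0.00608), and PPP3CB fell from 71.4 ± 4.93 to 52.8 ± 0.944 CPM (−0.43 ± 0.07, adjusted p = 0.000478). NFATC1 was not analysed here. NFATC2 (−0.01 ± 0.07) and NFATC3 (−0.15 ± 0.08) were not called, and neither was RCAN1 (−0.42 ± 0.30). RCAN2, a calcineurin inhibitor, rose from 128 ± 3.84 to 228 ± 1.32 CPM (0.83 ± 0.06, adjusted p = 3.39e-07), and DYRK1A, a kinase that counters NFAT, rose (0.37 ± 0.06), while CABIN1 (−0.42 ± 0.07), AKAP5 (−0.64 ± 0.12) and HOMER2 (−0.62 ± 0.19) of the same group fell. CAMK4, a calmodulin-dependent kinase, rose from 1.16, 0.759 and 1.83 CPM to 9.30, 7.16 and 8.26 CPM (2.71 ± 0.25, adjusted p = 2.75e-06), and CAMKK2, the kinase that activates it, fell (−0.52 ± 0.08, adjusted p = 0.00019).

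Genes known as targets of NFAT, many of which other factors also drive, rose more often than they fell in both comparisons with TMM normalization. This list was also chosen with earlier results of these data known. Its counts are a description, and nothing about NFAT is read from them. In KO NK cells 7 of 21 tested genes rose and none fell, or 33.3% called against 11.9% of all genes (4.44% higher and 7.43% lower), and the list's median was 0.49 against 0.01 over all genes. Ifng rose from 15.9, 25.4 and 16.2 CPM to 39.3, 43.0 and 38.3 CPM (1.07 ± 0.19, adjusted p = 0.0279), with all KO libraries above all WT libraries. Csf2 (1.33 ± 0.30), Xcl1 (0.81 ± 0.21), Tnfrsf9 (0.71 ± 0.18), Ccl4 (0.60 ± 0.13), Nr4a2 (0.59 ± 0.15) and Cblb (0.55 ± 0.14) were the others. Tnfrsf9 was at 37.2, 52.6 and 33.6 CPM in WT and 57.8, 75.1 and 68.2 CPM in KO. In Tnfrsf9, Nr4a2 and Cblb, as in Saraf and Camk2g, WT replicate 2 was the highest WT library and KO replicate 1 the lowest KO library. They were so for the NK marker sum as well. In Ifng, Csf2, Xcl1 and Ccl4 WT replicate 2 was also the highest WT library, while KO replicate 3 was the lowest KO library. The part of the marker difference in these rises was not tested. The count of 7 called target genes was 0 without WT replicate 1, WT replicate 3, KO replicate 2 or KO replicate 3, and 12 without WT replicate 2. Over all genes these fits called 99, 14, 0, 0 and 3530, in that order. Scaled to the pan-NK genes the median of the list was −0.31 against −0.81 over all genes, and 5 of its 21 tested genes were called, all lower. Of all genes tested, 8550 of 13189 were called with this scaling, 8517 of them lower.

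In BIX-01294-treated NK92MI 11 of 18 tested target genes rose and 2 fell, or 72.2% called against 36.9% of all genes (18.4% higher and 18.4% lower), with a median of 0.59 against −0.01. TNFRSF9, a costimulatory receptor, rose from 5.64, 5.20 and 3.19 CPM to 68.8, 61.8 and 62.7 CPM (3.78 ± 0.14, adjusted p = 1.95e-09), and IFNG from 31.0, 28.4 and 35.0 CPM to 259, 164 and 193 CPM (2.71 ± 0.14, adjusted p = 1.9e-08). NR4A1 (2.35 ± 0.27), NR4A3 (1.31 ± 0.13), CCL3 (1.27 ± 0.27), CTLA4 (1.24 ± 0.14), CCL4 (0.94 ± 0.09), IL2RA (0.89 ± 0.06), EGR2 (0.62 ± 0.20) and LTA (0.56 ± 0.09) also rose. NR4A1 was low, at 0.523 to 1.05 CPM with DMSO and 4.01 to 4.23 CPM with BIX-01294. The groups of EGR2 overlapped, with BIX-01294 replicate 2 at 6.11 CPM and a control at 6.19 CPM. FASLG, a death ligand, fell from 90.1 ± 0.986 to 57.8 ± 2.99 CPM (−0.64 ± 0.07, adjusted p = 1.03e-05), and TOX fell (−0.21 ± 0.06, adjusted p = 0.0206).

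**Figure D4:**
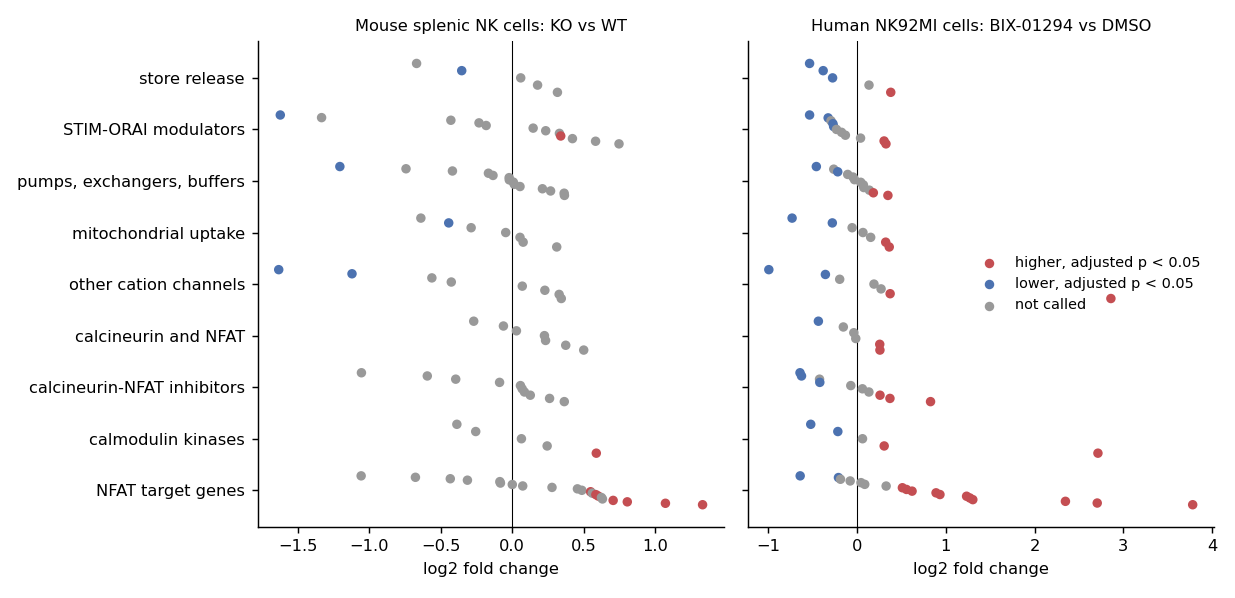
Log2 fold change (x axis) of the tested pathway genes, by role (y axis), and of the NFAT target genes, KO over WT on the left and BIX-01294 over DMSO on the right, on different x scales. Points are genes, red where called higher, blue where called lower and grey where not called, at an adjusted p under 0.05 by edgeR. In the pathway 2 genes are red and 6 blue on the left, and 16 red and 19 blue on the right.

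The 2 comparisons share no libraries, and a deletion in mouse cells and an inhibitor in a human line differ in more than species. Side by side, the log2 fold change of the ORAI2 gene was 0.26 ± 0.11 in KO NK cells and −0.996 ± 0.063 with BIX-01294, and that of the STIM1 gene was 0.26 ± 0.12 and 0.03 ± 0.06. The difference between the comparisons was not tested. With TMM normalization the SARAF gene rose in both, by 0.34 and 0.33 on the log2 scale. With scaling to the pan-NK genes no gene of the pathway list rose in KO NK cells, and 33 of all 13189 genes tested were called higher. The NK cell markers, nearly the same set, were themselves higher in KO with TMM, 7 of 12 of them called. Scaling to such genes moved the median of all genes from 0.01 to −0.81, so nothing is read from the lack of rises.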

How the data were processed

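Raw counts per gene symbol, as deposited by the authors, were analysed for 12 libraries. The authors trimmed reads with fastp 0.23.4, aligned them with STAR 2.7.11b (2 mismatches), to GRCm38/mm10 in mouse and GRCh38/hg38 in human, and counted with HTSeq 2.0.3. The annotation release and strand setting are not given in the sources used here. Control columns of the human table are not linked to numbered DMSO samples and formed a group.

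Each species was fitted in R 4.3.3 with edgeR 4.0.16 (TMM, filterByExpr, quasi-likelihood test, Benjamini-Hochberg adjustment over all genes tested, called under 0.05). Pearson's r was taken on log2 CPM (prior count 2). Positions and lengths are from GENCODE annotations of the same builds, not shown to be the authors' release, and promoters from RefSeq. The procedure was tested on simulated data. Alternatives were DESeq2 1.42.0, limma-voom (limma 3.58.1), other normalizations and filters (a mean CPM of at least 1, none), the replicate number as a block, left-out libraries, scaling to 12 pan-NK genes, and the study's thresholds (adjusted p under 0.01, |log2 fold change| over 0.5). The second gene length and DESeq2 at the study's thresholds were added after seeing the data.

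The members and lists were chosen with earlier results of these data known. Genes named are the members, Ehmt2 and Ehmt1, list genes called (at most 10 a direction by size), 17 fixed pathway genes, and the 2 most correlated with each member. Some genes that this rule takes in are not reported here.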

Additional observations from a re-analysis of the deposited data

How the results depend on the processing

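In KO against WT NK cells the number of genes called was unstable. All genes called numbered 1565 by edgeR, 3087 by DESeq2, 3222 with the replicate number as a block, 8550 (33 higher and 8517 lower) with scaling to the 12 pan-NK genes, 0 by edgeR at the study's thresholds and 0 to 3530 with a library left out. DESeq2, the study's tool, called 1495 at those thresholds (396 higher and 1099 lower), with 6 pathway genes, 8 NFAT target genes and 0 members. Pathway genes called numbered 8, against 19 by DESeq2, 25 with the block, 47 with that scaling, 0 by edgeR at the study's thresholds and 0 to 23 with a library left out. NFAT target genes called numbered 7, against 11 by DESeq2, 12 with the block, 0 by edgeR at the study's thresholds and 0 to 12 with a library left out. Members called numbered 0, against 1 (Stim1) with the block, 2 (Orai1 and Orai3, both lower) with scaling to the pan-NK genes and 0 to 1 with a library left out. Deviations from the group mean had r from −0.19 to 0.35 between same-numbered WT and KO libraries, and from −0.44 to 0.28 between differently numbered ones. With 3 libraries a group these overlapping ranges do not settle whether the numbers pair libraries. The main fit did not use them as pairs.

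In BIX-01294 against DMSO, 4692 genes were called, and at the study's thresholds 1485 by edgeR and 1484 by DESeq2. There, each tool called 9 pathway genes instead of 35. Members called numbered 1 to 2 with a library left out, and all genes called 3491 to 5021. No paired analysis was possible because the numbers in the control columns' names are not linked to the numbered DMSO samples, and so pair no libraries. ORAI3 could not be fitted with a mean CPM of at least 1, and its 9 to 22 counts per library limit it.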
